A study of Homo sapiens with 3 samples.

Results

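The cytochrome P450 family was followed in THP-1 cells, an established human monocytic leukemia line, before and after differentiation with phorbol myristate acetate (PMA). Its members were taken as the probe sets whose platform gene symbol is CYP followed by digits, letters and digits, without pseudogenes and antisense genes, which gave 47 genes read by 92 probe sets, of 19775 genes and 41091 probe sets that the platform table lists with 1 gene. All 47 were protein-coding in the RefSeq gene table. A further 11 probe sets list a P450 gene together with another gene and were left out, so that CYP51A1, for example, is not analysed here. Symbols of the family chose the members, not their values.

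There were 3 arrays, each of 1 culture. The undifferentiated culture had no PMA. The culture labelled PMA 3 days was given 200 nM PMA for 24 h and then kept 3 further days without it, and the culture labelled PMA 8 days was given 200 nM PMA for 72 h and then kept 5 further days without it. All cells came from medium with 10% serum, and RNA was taken 16 h after a change to medium with 2% serum, with no statement on whether the undifferentiated cells had that change. Time in PMA, time since PMA and time in culture thus cannot be told apart. With 1 array per condition there is no error between cultures and no test, and "higher" and "lower" are used of genes only for a difference of at least 2-fold unless values are given. In these bulk cultures, a change in the share of cells that hold a transcript and a change in the RNA per cell cannot be told apart.

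P450 enzymes are heme proteins that insert an oxygen atom into lipophilic substrates, with electrons passed on by POR in the endoplasmic reticulum or by ferredoxin in mitochondria. Some clear drugs and other foreign compounds, chiefly in liver, and others make or break down signalling lipids: steroid hormones, oxysterols, vitamin D, retinoic acid and eicosanoids. Macrophages are known for sterol side-chain oxidation by CYP27A1, for vitamin D activation by CYP27B1 and for aromatase, the product of CYP19A1. PMA switches on protein kinase C, whose downstream factors include AP-1, and the aryl hydrocarbon receptor AHR drives genes of the CYP1 branch.

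The sequences that bear on the members described first are the RefSeq promoter windows (GRCh38.p14, from 250 bases before to 50 bases after a transcript start) of CYP19A1 and CYP27A1, the members higher after PMA, and of CYP1A1, a textbook AHR target. Promoter windows matched by symbol were searched for 34 of the 47 members, 47 windows in all. The other members, among them CYP1B1, CYP7A1, CYP7B1, CYP11B1 and CYP11B2, were not searched, whether or not they have a window. The shares of P450 windows given below do not cover them. CYP19A1, a gene known for alternative first exons, has 7 of them, and the 2 shown are those that hold the AP-1 letters TGANTCA. Both strands were searched, and this motif reads the same on either. The first lies at chr15:51243866-51244165 (minus strand, motif from position -49 relative to the start) and the second at chr15:51288289-51288588 (minus strand, position -71). The CYP27A1 window is chr2:218781897-218782196 (plus strand), with 2 matches to the GC box letters GGGCGG on either strand, and the CYP1A1 window is chr15:74725479-74725778 (minus strand), with the AHR core letters GCGTG at position -57. Capitals mark the AP-1 letters in the CYP19A1 windows, the GC boxes in the CYP27A1 window and the AHR core in the CYP1A1 window. A different motif was thus picked for each gene. The CYP27A1 window holds no TGANTCA, whereas a window of each of CYP3A4, CYP4F11 and CYP4F3 does. Whether AP-1 acts on CYP19A1 in these cells was not tested. A GC box also lies at position -12 of the second CYP19A1 window and at -148 of the CYP1A1 window, and the TATA box letters TATAAA at -32 of the CYP1A1 window, all left in lower case.
CYP19A1 first window: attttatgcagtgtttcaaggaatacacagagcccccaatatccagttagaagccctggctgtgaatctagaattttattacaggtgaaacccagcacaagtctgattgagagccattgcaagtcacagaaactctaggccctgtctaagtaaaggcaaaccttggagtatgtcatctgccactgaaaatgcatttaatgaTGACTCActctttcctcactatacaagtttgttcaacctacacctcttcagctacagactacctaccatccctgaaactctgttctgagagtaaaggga
CYP19A1 second window: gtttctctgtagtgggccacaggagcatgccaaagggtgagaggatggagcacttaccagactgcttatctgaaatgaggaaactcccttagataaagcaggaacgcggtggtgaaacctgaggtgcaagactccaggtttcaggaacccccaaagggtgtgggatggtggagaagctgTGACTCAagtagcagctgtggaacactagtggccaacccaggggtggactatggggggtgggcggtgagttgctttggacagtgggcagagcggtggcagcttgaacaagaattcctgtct
CYP27A1 window: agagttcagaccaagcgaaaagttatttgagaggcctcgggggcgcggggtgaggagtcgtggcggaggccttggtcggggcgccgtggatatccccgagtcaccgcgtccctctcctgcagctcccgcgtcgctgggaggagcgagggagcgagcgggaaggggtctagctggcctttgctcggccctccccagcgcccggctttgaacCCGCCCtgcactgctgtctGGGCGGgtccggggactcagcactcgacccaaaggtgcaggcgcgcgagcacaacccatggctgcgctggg
CYP1A1 window: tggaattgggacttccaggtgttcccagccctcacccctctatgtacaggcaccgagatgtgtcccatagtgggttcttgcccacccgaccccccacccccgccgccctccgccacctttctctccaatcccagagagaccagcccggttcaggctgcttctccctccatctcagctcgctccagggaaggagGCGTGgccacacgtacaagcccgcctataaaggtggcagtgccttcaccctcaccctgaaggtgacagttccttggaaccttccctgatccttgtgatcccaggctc
Of all 35116 promoter windows in the table, 7.71% hold TGANTCA, 36.5% GCGTG, 45% GGGCGG and 11.5% TATAAA. Of the 47 searched windows of P450 members 10.6%, 23.4%, 36.2% and 31.9% do. No match to one of these motifs overlaps a match to another in the windows shown, and a match of letters is not a measured binding site. The platform does not say which CYP19A1 start was used in these cells.

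The labels were first set against marker genes. Of 6 macrophage markers 5 were higher in both PMA cultures than in undifferentiated cells, and the other, FCGR1A, stayed on every array under 149.8 units, the median of all probe set values on the 3 arrays, used here as a signal floor. Of 6 promonocytic granule and progenitor genes 5 were lower in both, with ELANE at 156 (PMA 3 days) and 199 (PMA 8 days) signal units, against 32064 in undifferentiated cells. Hepatocyte markers, of interest because hepatocytes hold many P450 transcripts, were above the floor in 4, 3 and 5 of 10 genes. They summed to 1744, 1785 and 1510 signal units in undifferentiated, PMA 3 days and PMA 8 days cells. By its brightest probe set APOA1, the only one past 2-fold, read 317, 97.3 and 118, at least 2.11-fold lower in both PMA cultures. Another APOA1 probe set read 159, 105 and 185 units, with no such difference. The 5 intestinal markers summed to 308, 410 and 273 units. The cultures were of the THP-1 line, and what gave these marker signals was not tested.

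Signals under the floor were raised to it before a log2 ratio was taken, so that a ratio with an array at the floor is a bound. A smaller share of P450 genes than of genes at large passed it. By the probe set with the highest mean of each gene, 22 of 47 P450 genes (46.8%) exceeded the floor on 1 or more arrays, against 13754 of 19775 genes (69.6%). On the single arrays the 47 members had 15 (undifferentiated, 31.9%), 13 (PMA 3 days, 27.7%) and 19 (PMA 8 days, 40.4%) above it. Of all genes 63.2%, 61.6% and 63.8% were above it on these arrays. On all 3 arrays 11 members (23.4%) were above it, against 56.3% of all genes. By role, 5 of 6 sterol, oxysterol and bile acid genes, 2 of 3 vitamin D genes and 8 of 14 genes of foreign compound metabolism passed, but only 2 of 11 fatty acid and eicosanoid genes, 1 of 5 steroid hormone genes and 1 of 3 retinoid genes, along with 3 of 5 less characterised members.

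**Figure D1:**
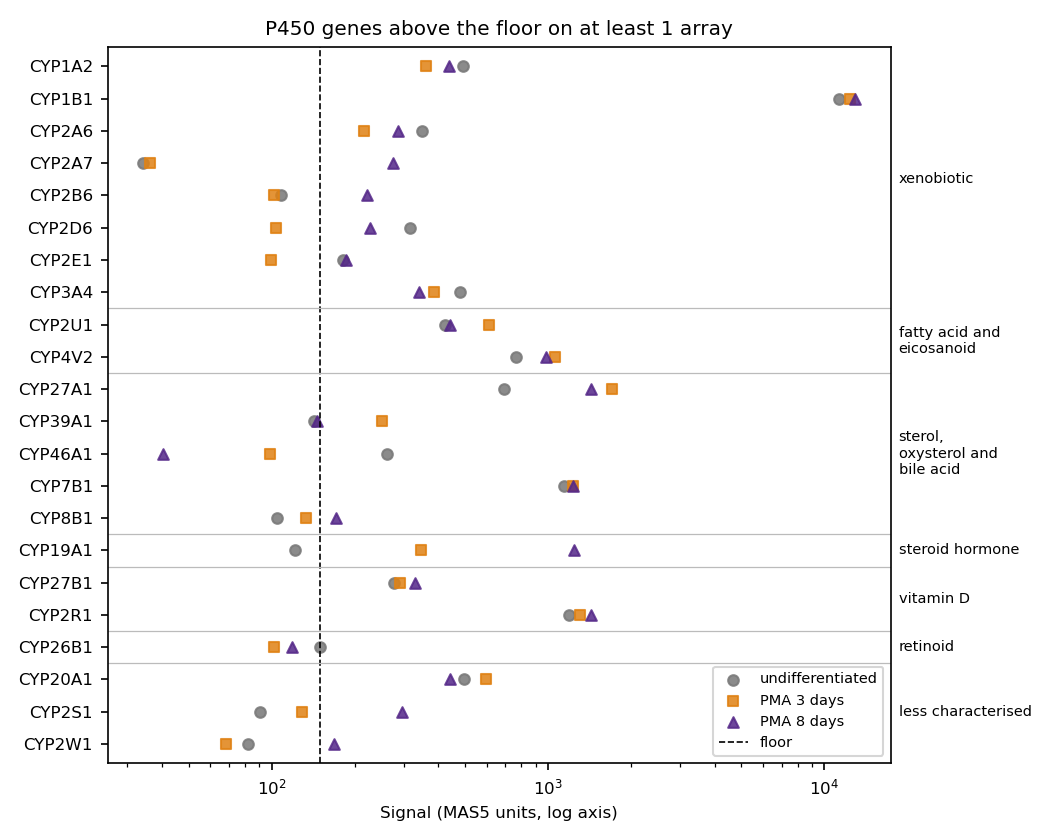
Signal (MAS5 units, log axis) of the 22 P450 genes that exceeded the floor on any array, with 1 point per array (grey circle undifferentiated, orange square PMA 3 days, purple triangle PMA 8 days) and the floor of 149.8 as a dashed line. CYP19A1 moves from left of the floor to 1239 units in PMA 8 days, whereas the 3 points of CYP1B1 and of CYP7B1 lie close together.

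The 25 members that did not pass on any array read between 2.86 and 146 units, with a median of 32.1. In the steroid hormone class these were CYP11A1, CYP17A1, CYP11B1 and CYP11B2, which carry out the early and adrenal steps of steroid synthesis. In the fatty acid class they were CYP2J2, CYP4A11, CYP4B1, CYP4F2, CYP4F3, CYP4F8, CYP4F11, CYP4F12 and CYP4F22. CYP1A1, CYP2A13, CYP2C8, CYP2F1, CYP3A5 and CYP3A43 were the ones of foreign compound metabolism, and CYP7A1 (the first step of bile acid synthesis), CYP24A1 (vitamin D breakdown), CYP26A1 (retinoic acid breakdown), CYP27C1, CYP4X1 and CYP4Z1 completed the list. A signal under the floor is not shown to be absence of the transcript. CYP11A1, the side-chain cleavage enzyme, came nearest to the floor, with 34.8, 66.9 and 146 units in undifferentiated, PMA 3 days and PMA 8 days cells.

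The first comparison asked which P450 genes differed between PMA 3 days and undifferentiated cells. CYP19A1 and CYP27A1 were higher and CYP2D6 was lower, 2 and 1 of the 17 members measured. Among all 13306 genes measured 10.4% were higher and 10.7% lower, so the family's shares were not far from the background. The median log2 ratio was 0.11 over the P450 genes and -0.12 over all genes. The poly-A labelling controls, 24 probe sets for RNA added during labelling, had a median log2 ratio of 0.31 in this comparison. Under scaling to them, 1 P450 gene was higher and 2 were lower, all genes gave 7.48% and 18.6%, and the medians became -0.17 and -0.39. A member could enter only by exceeding the floor on either array, so a gene near the floor enters through the array on which it is high.

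PMA 8 days was then set against undifferentiated cells. CYP19A1 and CYP27A1 were higher again and no P450 gene was lower, 2 and 0 of 21 measured, against 9.83% higher and 8.49% lower of 13555 genes. The median log2 ratio was 0.16 for P450 genes and -0.07 for all genes. Both comparisons use the same undifferentiated array, so their similarity is no independent evidence.

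The third comparison set PMA 8 days against PMA 3 days. CYP19A1 was the only P450 gene of 20 measured that was higher, and none was lower, against 1.37% higher and 0.958% lower of 13051 genes (3.96% and 0.33% under poly-A control scaling, with a median of 0.30 over all genes). The median log2 ratio was 0.17 for P450 genes and 0.04 for all genes.

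**Figure D2:**
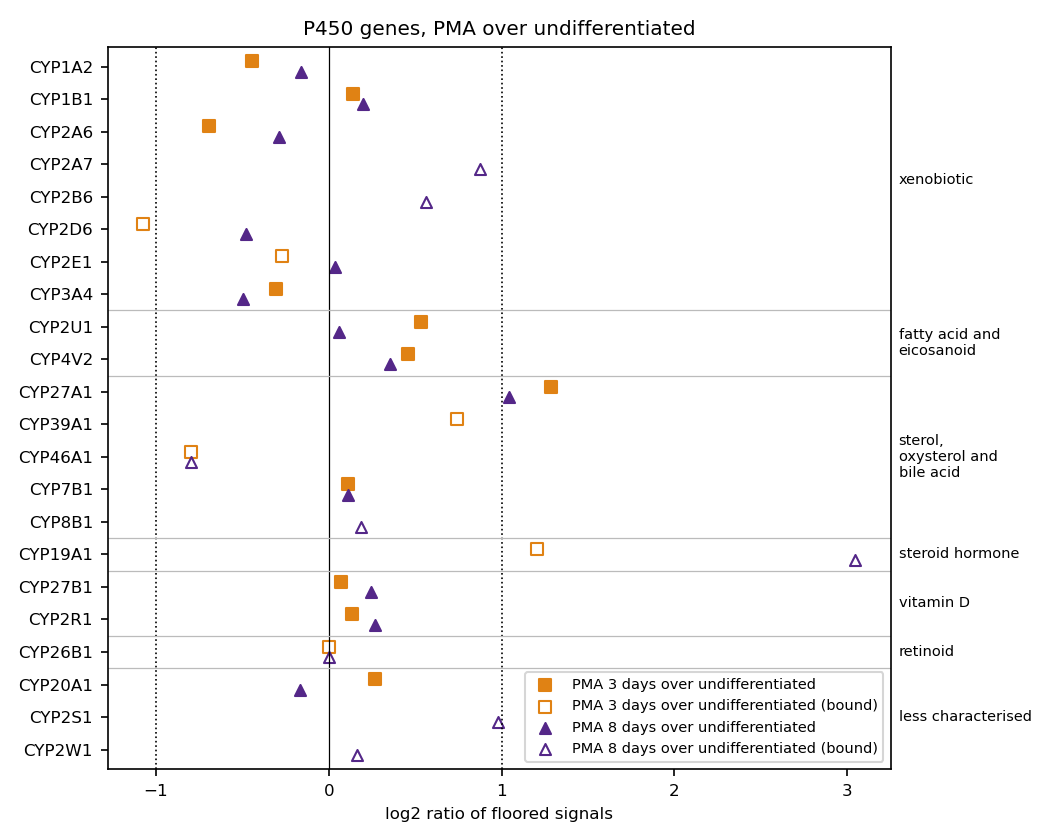
log2 ratio of floored signals for PMA 3 days (orange squares) and PMA 8 days (purple triangles) over undifferentiated, for each P450 gene measured, with open symbols for bounds and dotted lines at 2-fold. CYP19A1 at 3.05 and CYP27A1 at 1.05 lie right of the 2-fold line for PMA 8 days, and CYP2D6 at -1.07 lies left of it for PMA 3 days.

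CYP19A1 encodes aromatase, which turns androgens into oestrogens. It read 122 units in undifferentiated cells, 346 in PMA 3 days and 1239 in PMA 8 days. Only the undifferentiated value was under the floor, and the 3 arrays stood well apart. The gene was at least 2.31-fold higher in PMA 3 days and at least 8.27-fold higher in PMA 8 days than in undifferentiated cells, and 3.58-fold higher in PMA 8 days than in PMA 3 days, a ratio with both arrays above the floor. In that last comparison it ranked 3 from the top of 13051 genes. Its rank was 14 of 15048 with the floor at the 40th percentile and 62 of 19775 with 50 units added in place of a floor, and between 3 and 5 under the other alternatives that gave it a value. It was among the 14 genes past 3-fold higher there, and it ranked 173 of 13555 in PMA 8 days over undifferentiated. With the floor at the 60th percentile, 261.2 units, its log2 ratio for PMA 3 days over undifferentiated was 0.41 and no longer past 2-fold, and that for PMA 8 days was 2.25, against 3.05 at the main floor. The other 6 CYP19A1 probe sets stayed under the floor on every array. The highest of these read 35.2, 61.4 and 88.3 units in undifferentiated, PMA 3 days and PMA 8 days cells, and the other 5 lay between 1.45 and 31.4. The change of aromatase therefore rests on 1 probe set.

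**Figure D3:**
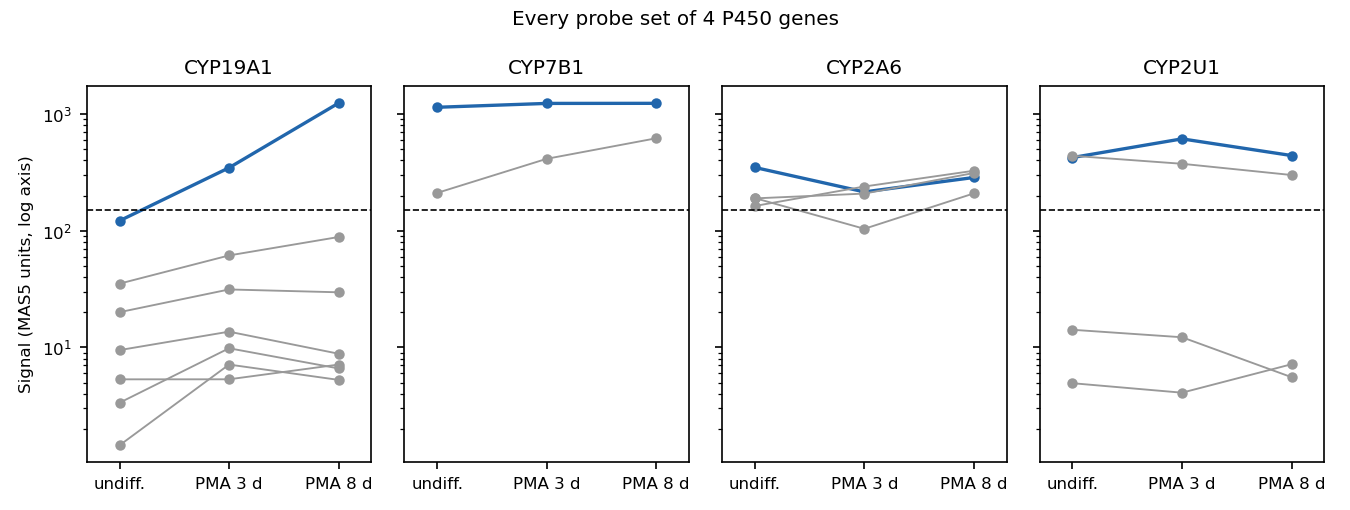
Signal (log axis) of every probe set of CYP19A1, CYP7B1, CYP2A6 and CYP2U1 on the 3 arrays, with the probe set that stands for the gene in blue, the others in grey and the floor as a dashed line. For CYP19A1 the blue line alone crosses the floor, whereas both CYP7B1 lines lie above it and only the lower climbs, to 619 units in PMA 8 days.

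Other genes of steroid synthesis and conversion differed in direction. Of 15 such genes with a probe set 8 were measured, and 1 was higher and 2 lower in either PMA culture. Among all genes 10.4% were higher and 10.7% lower in PMA 3 days, and 9.83% and 8.49% in PMA 8 days. SRD5A1, a steroid reductase that competes with aromatase for testosterone, read 529, 3615 and 3740 units in undifferentiated, PMA 3 days and PMA 8 days cells, 6.83-fold and 7.07-fold higher in PMA 3 days and PMA 8 days. Its other 2 probe sets gave smaller folds, 5.27 and 4.58 in PMA 3 days and 4.66 and 4.41 in PMA 8 days. HSD11B1, which regenerates cortisol, read 2065, 207 and 168 units, 10.0-fold and 12.3-fold lower. STAR, which carries cholesterol into mitochondria for steroid synthesis, read 1010, 19.8 and 175 units, at least 6.74-fold and then 5.78-fold lower. The markers of adrenal or gonadal steroid cells, of which STAR was the only one measured, summed to 1272, 253 and 495 units. Their relation to the CYP19A1 values in these THP-1 cultures was not tested.

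Among the sterol-oxidising members, CYP27A1 encodes the mitochondrial sterol hydroxylase that makes an oxysterol in macrophages. It read 695, 1698 and 1434 units in undifferentiated, PMA 3 days and PMA 8 days cells. Both PMA arrays were above the undifferentiated one, by 2.44-fold and 2.06-fold, and differed little from each other (log2 ratio -0.24 for PMA 8 days over PMA 3 days). Under poly-A control scaling its log2 ratio at PMA 3 days was 0.98, and with 50 units added in place of the floor it was 0.99 at PMA 8 days, both just short of 2-fold. It has 1 probe set on the array.

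CYP7B1, which hydroxylates oxysterols, gave different answers by probe set. Its main probe set read 1141, 1231 and 1233 units in undifferentiated, PMA 3 days and PMA 8 days cells, all within 1.08-fold. The other read 211, 413 and 619 units, 1.96-fold and 2.94-fold higher in PMA 3 days and PMA 8 days than in undifferentiated cells. Which transcripts the 2 probe sets read was not tested.

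CYP46A1, the cholesterol hydroxylase best known from neurons, read 260 units in undifferentiated cells, 98.7 in PMA 3 days and 40.5 in PMA 8 days, at least 1.74-fold below the undifferentiated array in either comparison. With the floor at the 40th percentile, 94.5 units, it was past 2-fold lower in both. CYP39A1, an oxysterol hydroxylase, passed the floor only in PMA 3 days, with 143, 251 and 145 units, and its 2 other probe sets stayed at or under 63.8 units. CYP8B1, of bile acid synthesis, passed it only in PMA 8 days, with 105, 133 and 170 units. At the floor of 149.8 units, CYP27A1 was the only member of the class past 2-fold by its main probe set.

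Genes around this class were followed too. Of 9 sterol synthesis genes, by their main probe sets, none was higher and TM7SF2 (2.26-fold) was lower in PMA 3 days, against 10.4% higher and 10.7% lower of all genes. In PMA 8 days SQLE, the squalene epoxidase, was 2.04-fold higher and none was lower, against 9.83% and 8.49%. Over the 9 genes the median log2 ratio was -0.61 in PMA 3 days and -0.49 in PMA 8 days. Over all genes it was -0.12 and -0.07. Dimmer probe sets of LSS (2.22-fold) and EBP (at least 2.38-fold) were lower in PMA 8 days, and another of LSS was at least 2.03-fold lower in PMA 3 days. The sterol regulators SREBF1 and SREBF2 were 3.98-fold and 2.59-fold lower in PMA 3 days than in undifferentiated cells, and another SREBF2 probe set was 2.34-fold lower. The remaining one read 512, 474 and 458 units in undifferentiated, PMA 3 days and PMA 8 days cells, with no such difference. In PMA 8 days SREBF1 was 2.78-fold lower and SREBF2 1.89-fold, short of the threshold. NR1H3, the oxysterol receptor LXR-alpha, read 1157, 1400 and 900.1 units.

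Of the members for foreign compounds, CYP1B1 differed little between the arrays on 3 of its 4 probe sets. It oxidises polycyclic hydrocarbons and oestradiol and is known to be driven by AHR. Its main probe set read 11255, 12398 and 12909 units in undifferentiated, PMA 3 days and PMA 8 days cells. A second read 8674, 10007 and 9752, and another 7583, 8336 and 8658. The log2 ratios over undifferentiated lay between 0.14 and 0.21 for all 3, within the technical SD of 0.43 (PMA 3 days) and 0.44 (PMA 8 days), by which such ratios differ when a gene is read by several probe sets. The remaining probe set stayed at or under 44.8 units. CYP1A1, its relative, read 19.5, 8.64 and 10.0 units, under the floor throughout.

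AHR itself was higher, with 820 units in undifferentiated cells, 2111 in PMA 3 days and 1939 in PMA 8 days, or 2.57-fold and 2.36-fold. Its partner ARNT read 2973, 2180 and 2106 units and its repressor AHRR 11580, 11642 and 9797, neither past 2-fold by its main probe set. Of 3 other ARNT probe sets, 1 read 479, 273 and 214 units and was 2.24-fold lower in PMA 8 days. Of 5 AHR-responsive genes outside the CYP1 branch 3 were measured, and NQO1, a quinone reductase that NRF2 also drives, was 4.35-fold and 4.13-fold higher in PMA 3 days and PMA 8 days, 1 of 3 against 10.4% and 9.83% of all genes. Its other 2 probe sets were higher too, by 5.36-fold and 4.11-fold in PMA 3 days. TIPARP was not past 2-fold in either comparison, and ALDH3A1 and UGT1A6 stayed under the floor. The RNA of AHR and of NQO1 was thus higher, while CYP1B1, AHRR and TIPARP stayed within 2-fold. Receptor activity was not measured.

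The other members of this class had low signals. CYP2D6, which metabolises codeine and many other drugs, read 316, 104 and 226 units in undifferentiated, PMA 3 days and PMA 8 days cells, at least 2.11-fold lower in PMA 3 days. The call was lost with the 60th percentile floor (log2 ratio -0.27), under quantile normalization (-0.98) and after centring on all genes (-0.96). Its other probe set stayed under the floor at 89.4, 32.7 and 110 units. CYP2A7, a close copy of CYP2A6, read 34.2, 36.3 and 275 units, and CYP2B6, which acts on bupropion, read 108, 102 and 222. Both passed the floor only in PMA 8 days, at least 1.84-fold and 1.48-fold above the undifferentiated array. With the 40th percentile floor both were past 2-fold higher in PMA 8 days than on either other array. CYP2A7 was so too with 50 units added in place of a floor. The name of the CYP2A7 probe set marks probes that may also match close copies such as CYP2A6.

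CYP2A6, the nicotine hydroxylase, had 4 probe sets above the floor on at least 1 array, and they did not move together. For PMA 8 days over undifferentiated their log2 ratios were -0.29, 1.00, 0.72 and 0.13, and for PMA 3 days -0.70, 0.55, 0.14 and -0.34. The second of these probe sets was thus just past 2-fold higher in PMA 8 days. The last read 104 units in PMA 3 days, under the floor, so its ratios with that array are bounds. For PMA 8 days over PMA 3 days all 4 were positive, between 0.41 and 0.59. Their names mark probes that may also match close copies such as CYP2A7, and which copies they read was not tested.

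CYP1A2 (491, 361 and 439 units), the caffeine demethylase, stayed within 2-fold on its main probe set, also of the kind that may match copies. Its other probe set read 64.7, 26.2 and 125 units. CYP3A4, the main drug oxidase of liver, read 480, 388 and 340 units on a probe set of the kind that may match copies, and its other 4 probe sets stayed at or under 133 units. CYP2E1, which oxidises ethanol, lay around the floor with 181, 99.0 and 186 units, and its other 3 reached at most 117. CYP2B6 had a second probe set that went the other way under the floor, with 137, 106 and 82.8 units. The class as a whole had a median log2 ratio of -0.38 over 6 genes for PMA 3 days, and of -0.06 over 8 genes for PMA 8 days, over undifferentiated.

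In the fatty acid class, CYP4V2, a fatty acid hydroxylase mutated in a retinal dystrophy, read 768, 1057 and 983 units in undifferentiated, PMA 3 days and PMA 8 days cells. A second probe set gave 670, 1044 and 864, so both were above the undifferentiated array in PMA 3 days, by 1.38-fold and 1.56-fold, without passing 2-fold. The other 2 stayed at or under 126 units. CYP2U1, a hydroxylase of long-chain fatty acids, read 423, 612 and 440 units by its main probe set and 438, 374 and 299.9 by the next, whose directions at PMA 3 days were opposite (log2 ratios 0.53 and -0.23). TBXAS1, thromboxane synthase, is a P450 by structure without a CYP symbol, and read 550, 3498 and 2366 units, 6.36-fold and 4.31-fold higher in PMA 3 days and PMA 8 days than in undifferentiated cells. Its other probe set read 332, 1023 and 874 units, 3.08-fold and 2.63-fold higher. PTGIS, the prostacyclin synthase of the same kind, stayed near the floor with 160, 126 and 161 units.

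The vitamin D members stayed within 2-fold. CYP2R1, which carries out the first hydroxylation of vitamin D, read 1187, 1301 and 1431 units, and CYP27B1, which makes the active hormone, read 277, 291 and 328 in undifferentiated, PMA 3 days and PMA 8 days cells. The largest log2 ratio over undifferentiated of these probe sets was 0.27. CYP2R1 had a second probe set at 115, 194 and 135 units, with a log2 ratio of at least 0.37 in PMA 3 days, and another at or under 15.8. The vitamin D receptor VDR was 2.48-fold and 2.80-fold lower by its main probe set, with 1534, 617 and 548 units, and 2 more of its probe sets were 2.11-fold and 2.17-fold lower in PMA 3 days. A further VDR probe set went the other way, with 40.9, 69.9 and 172 units, and passed the floor only in PMA 8 days. CYP24A1, the breakdown enzyme that VDR drives, read 5.98, 38.1 and 59.1 units, all under the floor.

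CYP26B1, of retinoic acid breakdown, exceeded the floor by a fraction of a unit in undifferentiated cells alone, with 149.9, 102 and 119 units, and its other probe set read 141, 47.8 and 32.8. The retinoic acid receptor gene RARA was 2.01-fold lower in PMA 3 days by its main probe set (1020, 507 and 608 units), and the PMA 8 days value was 1.68-fold below undifferentiated. Another RARA probe set read 486, 196 and 69.7 units, 2.48-fold and at least 3.24-fold lower in PMA 3 days and PMA 8 days, and the remaining one read 22.6, 161 and 99.3 units. Among the less characterised members, CYP2S1, found mainly outside the liver, read 90.9, 129 and 295 units and was at least 1.97-fold above both other arrays in PMA 8 days, just short of 2-fold. CYP2S1 passed 2-fold in both with the 40th percentile floor, under quantile normalization and under poly-A control scaling. After centring on all genes, and with 50 units added in place of a floor, it passed 2-fold over undifferentiated cells only. CYP20A1, an orphan enzyme, read 495, 595 and 441 units. CYP2W1, known from fetal gut and colon tumours, read 82.3, 68.5 and 168 units and passed the floor only in PMA 8 days.

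**Figure D4:**
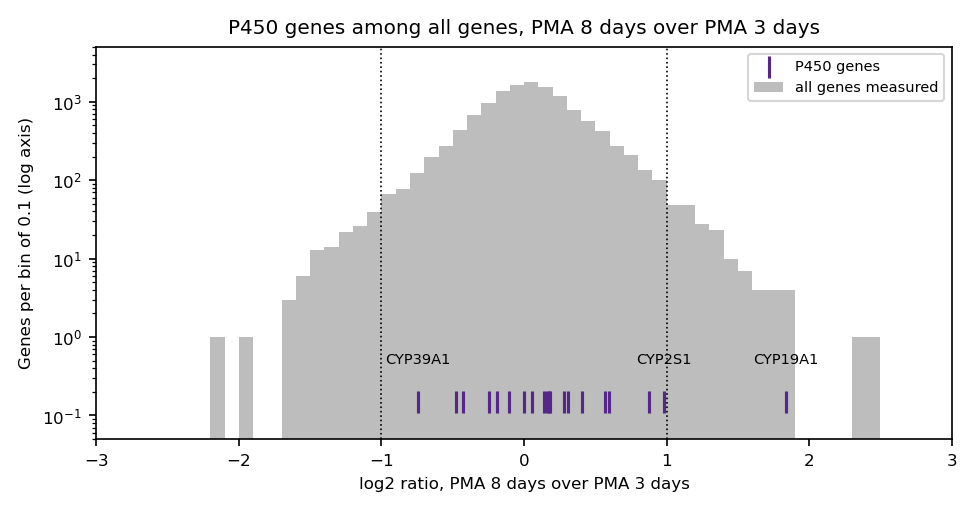
Histogram of log2 ratios for PMA 8 days over PMA 3 days over all 13051 genes measured (grey bars, number of genes per bin on a log axis), with each of the 20 P450 genes as a purple tick below and dotted lines at 2-fold. CYP19A1 at 1.84 lies in the upper tail, CYP2S1 at 0.98 just inside the 2-fold line and CYP39A1 at -0.74 on the lower side.

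P450 enzymes need electrons and heme. Of 9 electron transfer genes measured, 1 was higher and none lower in each PMA culture by the main probe sets. Among all genes 10.4% were higher and 10.7% lower in PMA 3 days, and 9.83% and 8.49% in PMA 8 days. The median log2 ratio of the list was 0.53 in PMA 3 days and 0.68 in PMA 8 days, and that of all genes -0.12 and -0.07. Dimmer probe sets were lower in PMA 3 days, 2 of CYB5B (2.01-fold and at least 2.37-fold) and 1 of FDX1 (at least 2.42-fold), and 1 of these CYB5B probe sets was lower in PMA 8 days too (log2 ratio -1.20). FDX2, a mitochondrial ferredoxin, read 420, 1163 and 1132 units, 2.77-fold and 2.70-fold higher in PMA 3 days and PMA 8 days than in undifferentiated cells. FDX1, the other ferredoxin of the list, read 2804, 4054 and 4003 units by its main probe set, within 2-fold. Whether either ferredoxin served P450 enzymes in these cells was not tested. POR, the reductase that serves the microsomal P450 enzymes, read 561, 707 and 895 units, with log2 ratios of 0.33 and 0.68. Of 7 heme synthesis genes, PPOX was 2.25-fold lower in PMA 3 days and ALAS1, the first enzyme of the pathway, was 2.24-fold higher in PMA 8 days, with medians of 0.10 and -0.07, each 1 of 7 genes by the main probe sets. Of 20 receptors and regulators 17 were measured in PMA 3 days, with AHR higher and VDR, RARA, SREBF1 and SREBF2 lower by the main probe sets, 1 and 4 genes against the same 10.4% and 10.7% of all genes. In PMA 8 days 18 were measured, with AHR higher and VDR and SREBF1 lower, 1 and 2 genes against 9.83% and 8.49%. The medians were -0.32 and -0.34. Other probe sets of RARA and ARNT were also lower in PMA 8 days, and 1 of NR3C1, the glucocorticoid receptor, was higher in PMA 3 days (log2 ratio 1.02).

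**Figure D5:**
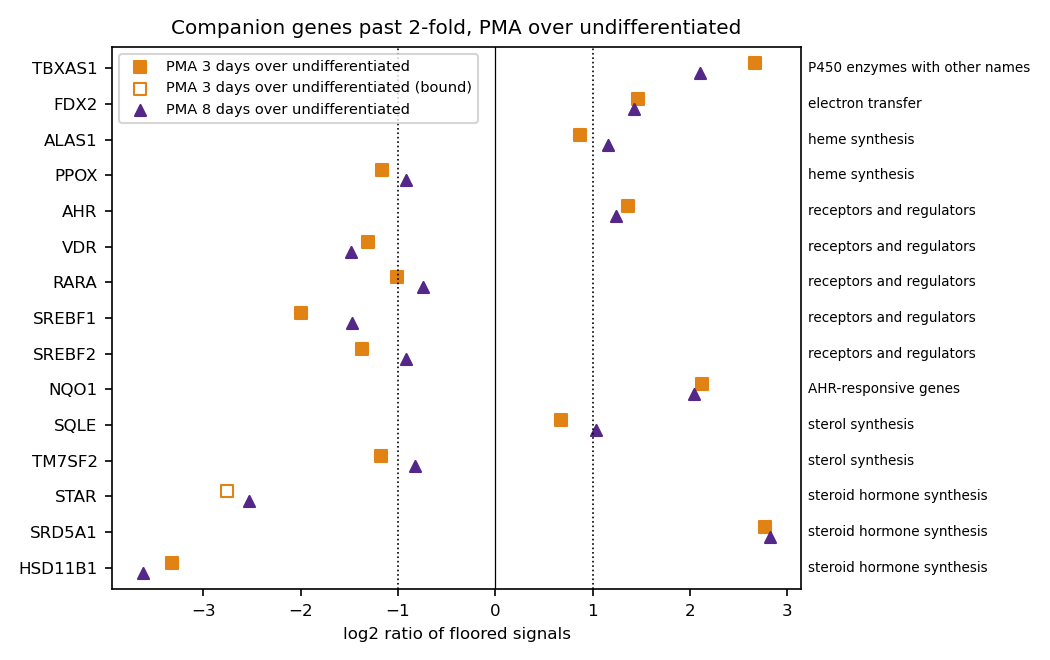
log2 ratio of floored signals for PMA 3 days (orange squares) and PMA 8 days (purple triangles) over undifferentiated, for companion genes of the P450 family past 2-fold in at least 1 of the comparisons, with an open symbol for a bound, dotted lines at 2-fold and the list of each gene at the right. SRD5A1, TBXAS1 and NQO1 lie beyond 2 on the right, and HSD11B1 and STAR beyond -2 on the left.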

How the data were processed

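RNA of 3 THP-1 cultures was measured on 1-colour, biotin-labelled oligonucleotide arrays from 200 ng of total RNA, per the labels' protocols. The deposited intensity values were made with MAS5, per the submitters' processing notes, with version and settings not given in the sources used here. They are on a linear scale, and each array has a mean of 1000 after 2% is left out at either end, read from the values. Detection calls were not used here.

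The array holds 54675 probe sets, of which 62 are controls and were left out of gene counts. Of the other 54613, the platform table lists 41091 with 1 gene, 1801 with several and 11721 with none. Each gene was represented by its probe set with the highest mean. The floor was set at 149.8, the median signal, a gene was measured in a comparison if above it on at least 1 of the 2 arrays, and calls were made at 2-fold. No test was possible. The number of arrays limits the precision. The technical SD of a log2 ratio, the spread between probe sets of a gene over 5180 genes, was 0.43 for PMA 3 days and 0.44 for PMA 8 days, each over undifferentiated, and 0.27 between the PMA arrays. It covers no difference between cultures.

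The text names every P450 gene above the floor on at least 1 array, and companion genes past 2-fold from lists written from general knowledge. APOA1, NR1H3, NR3C1, ARNT, AHRR, TIPARP, ALDH3A1, UGT1A6, POR, PTGIS, LSS, EBP, CYB5B, FDX1 and the low signals of CYP1A1, CYP11A1 and CYP24A1 fall outside that rule and were chosen after their values were seen. Members, lists and alternatives were chosen with earlier results of these data known. The steps were tested on simulated data with changes planted only in genes well above the floor, so recovery of changes near the floor was not tested. Python 3.11.15, numpy 2.4.6, pandas 2.3.3 and matplotlib 3.10.9 were used. Gene names are those of the platform table. RefSeq (GRCh38.p14) matched all 47 members by Entrez ID and gave the promoter windows.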

Additional observations from a re-analysis of the deposited data

How the results depend on the processing

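Alternatives for the floor, the scaling, the probe set of a gene and the fold threshold were applied to the P450 counts and medians, and the cause of the differences was not tested. For PMA 3 days over undifferentiated, 2 P450 genes were higher and 1 lower as reported. With the 60th percentile floor 1 was higher and 0 lower, with poly-A control scaling 1 and 2, with second-brightest probe sets (6 genes) 0 and 0, at 3-fold 0 and 0. The lower count was also 2 with the 40th percentile floor, 4 with 50 units added in place of a floor, 0 under quantile normalization, 0 after centring and 3 at 1.5-fold. The median log2 ratio of 0.11 became -0.174 with poly-A control scaling, 0.229 after centring and 0.463 over second-brightest probe sets. For PMA 8 days over undifferentiated, 2 were higher and 0 lower as reported. The higher count was 5 with the 40th percentile floor, 5 with 50 units added, 4 at 1.5-fold and 1 at 3-fold, and the lower count 1, 3 and 1 under the first 3 of these. The median of 0.16 became 0.019 with 50 units added and 0.366 over second-brightest probe sets. For PMA 8 days over PMA 3 days, 1 was higher and 0 lower as reported. The higher count was 5 with the 40th percentile floor, 4 at 1.5-fold, 0 over second-brightest probe sets, and 2 each with 50 units added, quantile normalization and poly-A control scaling, and 1 was lower at 1.5-fold. The median of 0.17 became 0.248 and 0.066 with the 40th and 60th percentile floors, 0.058 with 50 units added, 0.344 with poly-A control scaling and -0.155 over second-brightest probe sets. Over all genes, counts moved by over 1.5 times in these cases beside the fold thresholds and second-brightest probe sets. For PMA 8 days over PMA 3 days, 179 genes were higher and 125 lower as reported, 375 and 191 with the 40th percentile floor, 793 and 381 with 50 units added, 516 and 43 with poly-A control scaling, and 97 were higher with the 60th percentile floor. For PMA 3 days over undifferentiated 2469 were lower with poly-A control scaling, against 1429. CYP19A1, CYP27A1 and CYP2D6, past 2-fold as reported, did not change direction under any alternative that gave them a value. Each has 1 probe set above the floor, so the alternatives of probe set could not change its ratio. CYP2A6, not past 2-fold as reported, did change direction. Its log2 ratio for PMA 8 days over undifferentiated was -0.29 by the main probe set and 1.00 by the second-brightest. No paired analysis was possible because each condition had 1 array. Leaving out a replicate was not possible for the same reason.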

Other observations

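Probe sets named for P450 pseudogenes, antisense genes and readthrough genes, outside the family as defined, numbered 10. Only the CYP2B7P probe set was above the floor, with 162 units in undifferentiated cells, 208 in PMA 3 days and 139 in PMA 8 days. Both CYP1B1-AS1 probe sets were under it on every array, the brighter of them at 36.4, 111 and 50.4 units.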
